A study of Rattus norvegicus with 10 samples.

Results

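The IGHV1 genes other than IGHV1-43 were the rarely used members of the IGHV1 subgroup in the heavy chain repertoires of 10 immunized Wistar rats. The rule for members used the gene names of the annotation and no measured value: a productive read counted when the first IGHV gene named for it began with IGHV1- or IGHV1S and was not IGHV1-43. By this rule 24 of the 141 IGHV genes seen in productive reads were members, and they held 3448 of 1615896 productive reads, or 0.213%. IGHV1-43 alone held 33441 productive reads, or 2.07%. A read here is 1 line of an annotated sequence list, that is, a cDNA sequence after copies with the same molecular tag were collapsed, and productive means an in-frame rearrangement without a stop codon.

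The libraries were made from the total RNA of whole spleen cell suspensions, 1 library per animal, with primers in the heavy chain constant domains and a multiplex forward primer set. The DNP animals (n = 5) had received keyhole limpet hemocyanin carrying dinitrophenyl groups, a small well-defined hapten, and the HuD animals (n = 5) recombinant human HuD, a neuronal RNA-binding protein that is a target of autoantibodies in a paraneoplastic syndrome. In both groups the first injection was given in complete and the 3 boosts in incomplete Freund's adjuvant, so all animals shared the adjuvants, and no unimmunized animal enters the comparisons. B cells were not sorted, so a gene with many reads can stand for many cells or for few cells rich in immunoglobulin RNA, and these cannot be told apart in such libraries. The productive reads per animal ran from 60647 to 259834.

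A heavy chain variable domain is assembled from 1 IGHV, 1 IGHD and 1 IGHJ segment in each developing B cell. CDR1 and CDR2, the first antigen-contacting loops, are encoded by the IGHV segment, whereas CDR3 is formed at the joints and is different in nearly every new B cell, so that a CDR3 found many times in 1 animal usually marks a clone. Rearrangements that are out of frame or carry a stop codon when formed make no protein and are not selected for what they bind. For this reason unproductive reads of the same genes serve as a reference. Whether the unproductive reads here were so when formed, or became so by mutation or sequencing error, was not tested.

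The most frequent CDR1 and CDR2 of the 10 most used members are shown first, because they show how alike these genes were as read. They are amino acid sequences copied from the deposited annotation, as the commonest form in the reads and not as germline sequence.
IGHV1-57: CDR1 GYTFTSYD and CDR2 INTGSGGT
IGHV1-60: CDR1 GYTFTSYD and CDR2 INPGSGGT
IGHV1-32: CDR1 GYTFTNHY and CDR2 IGPTNGDT
IGHV1-47: CDR1 GYTFTSNH and CDR2 INPGSGGT
IGHV1-28: CDR1 GYTFTSYD and CDR2 IYPGNGNT
IGHV1-52: CDR1 GYTFTNHY and CDR2 IGPTNGDT
IGHV1-24: CDR1 GYTFTSNY and CDR2 IYPGDGDT
IGHV1-29: CDR1 GFTFSNSY and CDR2 IYAGDGGT
IGHV1-36: CDR1 GYTFTDYW and CDR2 IYPNSGAT
IGHV1-6: CDR1 GDTIITYY and CDR2 IDPEDDST

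Of the 3448 reads, 3422 had a CDR1 and 3428 a CDR2 of 8 residues. IGHV1-57, IGHV1-60 and IGHV1-28 had the same commonest CDR1, IGHV1-60 and IGHV1-47 the same commonest CDR2, and IGHV1-32 and IGHV1-52 were the same in both. However, 140 of the 328 IGHV1-32 reads and 100 of the 105 IGHV1-52 reads came from 1 group of related HuD3 reads, described below. The CDR2 shown was in 143 and 99 reads of these genes, so their likeness may be that of this group. How many of those reads lay in the group was not counted. The forms were common to different degrees: the CDR2 shown made up 23.9% of the IGHV1-57 reads and 94.3% of the IGHV1-52 reads, and the CDR1 shown made up 38.7% and 89.5%. In 62 of the reads (1.80%) the annotation named several genes, 35 of them under IGHV1-32 and 22 under IGHV1-57, and these reads were counted under the first.

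Usage was concentrated in a single gene. IGHV1-57 held 1685 reads, or 48.9% of all reads of the members. IGHV1-60 followed with 406 reads, IGHV1-32 with 328, IGHV1-47 with 265, IGHV1-28 with 258 and IGHV1-52 with 105. The other 18 members had fewer than 100 reads each and 401 reads together. The nearest to that limit were IGHV1-52 above it and IGHV1-24, with 73 reads, below it. 6 genes were read in all 10 animals, namely IGHV1-57, IGHV1-32, IGHV1-47, IGHV1-28, IGHV1-24 and IGHV1-36. Conversely, 2 genes had productive reads in a single animal. These were IGHV1-52, only in HuD3, and IGHV1-56, with 1 read in HuD1. The annotation lists 17 of the 24 members as functional and 7 as an open reading frame or a pseudogene, and these 7 held 170 reads, of which IGHV1-52 gave 105.

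**Figure D1:**
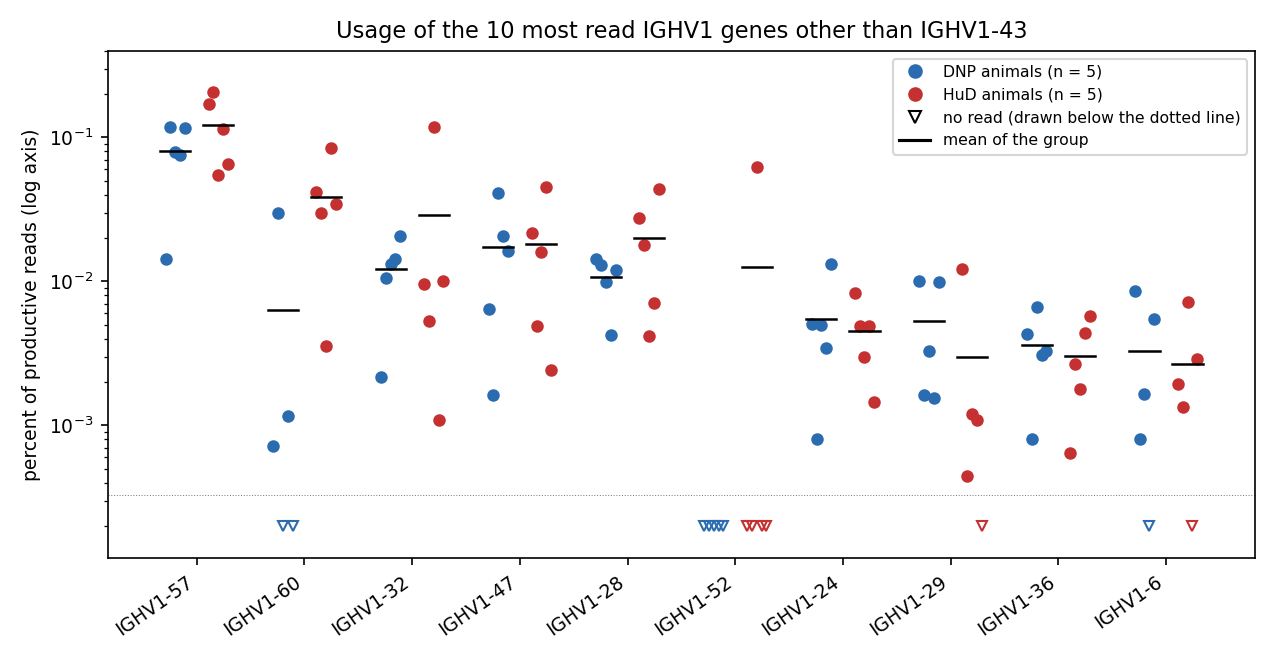
Percent of productive reads (log axis) of the 10 most read members in each animal, DNP animals in blue and HuD animals in red (n = 5 each); bars are group means, which include animals without a read, and open triangles below the dotted line mark animals without a read. IGHV1-57 lies above the other genes in most animals, IGHV1-52 had productive reads only in HuD3, and the highest animal of IGHV1-32 is also HuD3, at 0.118%.

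IGHV1-57 gave 20, 147, 48, 196 and 107 reads in DNP1 to DNP5 and 265, 464, 92, 210 and 136 in HuD1 to HuD5. As a percent of productive reads this was 0.0809 ± 0.0424 (SD, n = 5) in DNP and 0.122 ± 0.0656 (SD, n = 5) in HuD animals. The groups overlapped widely, with the lowest animal in the DNP group and the highest, 0.207%, in the HuD group.

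IGHV1-60 gave 1, 37, 0, 3 and 0 reads in DNP1 to DNP5 and 65, 67, 6, 155 and 72 in HuD1 to HuD5. The percent was 0.00635 ± 0.0132 (SD, n = 5) in DNP and 0.0388 ± 0.0292 (SD, n = 5) in HuD animals. Thus 4 of the DNP animals had at most 3 reads, while DNP2 lay in the range of the HuD animals and above HuD3.

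IGHV1-32 gave 3, 13, 8, 37 and 19 reads in DNP1 to DNP5 and 15, 12, 198, 2 and 21 in HuD1 to HuD5. HuD3 stood apart from the other 9 animals, with 0.118% against at most 0.0207%. IGHV1-47 gave 9, 2, 25, 54 and 15 reads in DNP1 to DNP5 and 34, 11, 27, 83 and 5 in HuD1 to HuD5, and both groups had high and low animals. IGHV1-28 gave 20, 16, 6, 11 and 11 reads in DNP1 to DNP5 and 43, 40, 7, 13 and 91 in HuD1 to HuD5. The percent of IGHV1-28 was 0.0107 ± 0.00395 (SD, n = 5) in DNP and 0.0201 ± 0.0162 (SD, n = 5) in HuD animals, with the 2 lowest values, 0.00423% and 0.00416%, found in 1 animal of each group.

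IGHV1-52, an open reading frame in the annotation, gave 105 reads in HuD3 and 0 in each of the other 9 animals. In HuD3 this was 0.0625% of the productive reads (95% Wilson interval 0.0516 to 0.0756, counting error only), or 625 RPM (reads scaled to a common total of productive reads). Over the 1447798 productive reads of the other 9 animals, a count of 0 allows up to 2.07 RPM (3 counts). The HuD3 estimate was 301 times this limit, without allowance for its own counting error. Both values are of productive reads. IGHV1-52 also had 3 unproductive reads, in 2 animals, so HuD3 was not the only animal with reads of it. As 100 of the 105 reads belonged to 1 group of related reads, described below, they are not independent counts of the use of the gene. Among the rarer named genes, IGHV1-24 (73 reads), IGHV1-29 (55), IGHV1-36 (52) and IGHV1-6 (43) were spread over 8 to 10 animals, with no more than 19 reads in any of them.

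Whether usage differed between the antigens was tested with edgeR's quasi-likelihood test on the reads of all 81 IGHV genes with at least 100 reads, with Benjamini-Hochberg adjustment. None of the 6 members tested passed the adjusted threshold of 0.05 (background: 2.47% of all genes tested, 2 genes, both lower in HuD). At an unadjusted p under 0.05 there was 1 member, IGHV1-52, against 23.5% of all genes. IGHV1-52 reached the minimum of 100 reads through HuD3 alone, so nothing is read from its p. The log2 difference, HuD over DNP, was 0.13 (SE 0.72, adjusted p = 0.896) for IGHV1-57, 1.99 (SE 1.45, adjusted p = 0.447) for IGHV1-60 and 1.64 (SE 1.33, adjusted p = 0.5003) for IGHV1-32. It was -0.31 (SE 1.10, adjusted p = 0.871) for IGHV1-47 and 0.51 (SE 0.82, adjusted p = 0.691) for IGHV1-28. The median over the 6 members, IGHV1-52 included, was 1.07, with 5 above 0, beside a median of 0.128 over all genes tested. This median rested on HuD3, since without that animal it was 0.177, with 3 of the 5 members then tested above 0. DESeq2 called 17 of the 81 genes and 0 of these members, with IGHV1-32 and IGHV1-52 left without an adjusted p. With limma on log2(RPM + 10), 16 of the 81 genes were called. IGHV1-60 was the 1 member among them, with a log2 difference of 3.46 and an adjusted p of 0.0353. Without DNP2 the edgeR test called 30 of the 81 genes, with IGHV1-60 as the 1 member among them (log2 difference 5.62, adjusted p = 0.00351). Calls were thus frequent over all genes in both settings that called IGHV1-60. Without HuD3 the difference of IGHV1-32 turned to -1.37, and it did not pass the test (adjusted p = 0.397). IGHV1-32 and IGHV1-52 come back below, since most of their reads in HuD3 had 1 kind of CDR3.

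Summed over the genes, the share of the members in the productive reads was 0.0775%, 0.182%, 0.181%, 0.127% and 0.211% in DNP1 to DNP5 and 0.312%, 0.288%, 0.294%, 0.267% and 0.175% in HuD1 to HuD5. The mean was 0.267 ± 0.0541 (SD, n = 5) in HuD and 0.156 ± 0.0531 (SD, n = 5) in DNP animals, a difference of 0.111 percentage points (two-sided exact permutation test, p = 0.0317). Only HuD5 lay within the range of the DNP animals. The difference rested on few reads, 108 to 646 per animal, and its p rose to 0.0635 when any 1 of DNP1, DNP4, HuD1, HuD2, HuD3 or HuD4 was left out, with differences of 0.0919, 0.104, 0.100, 0.106, 0.105 and 0.111. When each distinct combination of IGHV gene, IGHJ gene and CDR3 was counted once, in place of its reads, the p was 0.325. In the same animals IGHV1-43 was read at 0.390% to 5.98% in DNP and 0.237% to 1.31% in HuD animals.

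**Figure D2:**
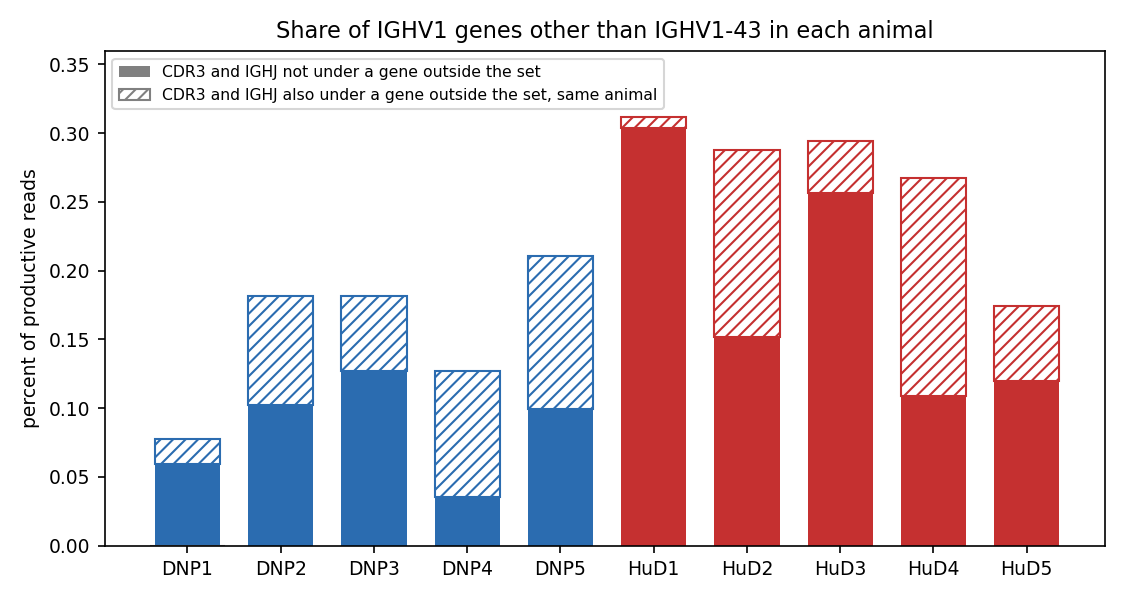
Share of the members in the productive reads of each animal, in percent, DNP in blue and HuD in red; the hatched part of a bar is the reads whose CDR3 and IGHJ gene were also read under a gene outside the set in the same animal. 4 of the HuD bars are above all DNP bars, and HuD5, at 0.175%, is not; the hatched part is smallest in HuD1.

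The IGHJ segments joined to these genes differed from those joined to other genes. IGHJ3 was found in 51.0 ± 16.04% (SD, n = 10) of the reads of the members and in 23.9 ± 2.71% of all other productive reads of the same animals. IGHJ2 was found in 25.9 ± 12.4% and 54.7 ± 3.90% respectively. IGHJ3 was higher among the members in 10 of 10 animals, with a difference of 27.1 percentage points, and IGHJ2 was lower in 10 of 10, with a difference of -28.9 percentage points. Both differences passed the two-sided exact sign-flip permutation test over the animals (p = 0.00195, the smallest this design can give, adjusted over 4 IGHJ genes 0.00391). IGHJ1 (difference 1.27, adjusted p = 0.805) and IGHJ4 (difference 0.477, adjusted p = 0.805, permutation test) did not pass.

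The IGHJ3 percent of the members was 45.4, 37.3, 56.4, 57.9 and 64.8 in DNP1 to DNP5 and 59.1, 42.4, 82.2, 28.9 and 35.9 in HuD1 to HuD5. In the other genes the same animals ran from 20.6% to 29.2%, so only HuD4 had a value among the members below the highest value of the other genes. The IGHJ2 percent of the members was 25.0, 20.9, 25.5, 9.70 and 20.2 in DNP1 to DNP5 and 23.2, 42.1, 8.89, 41.9 and 41.4 in HuD1 to HuD5. In the other genes it was 48.9% to 62.4%, above each of these values.

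**Figure D3:**
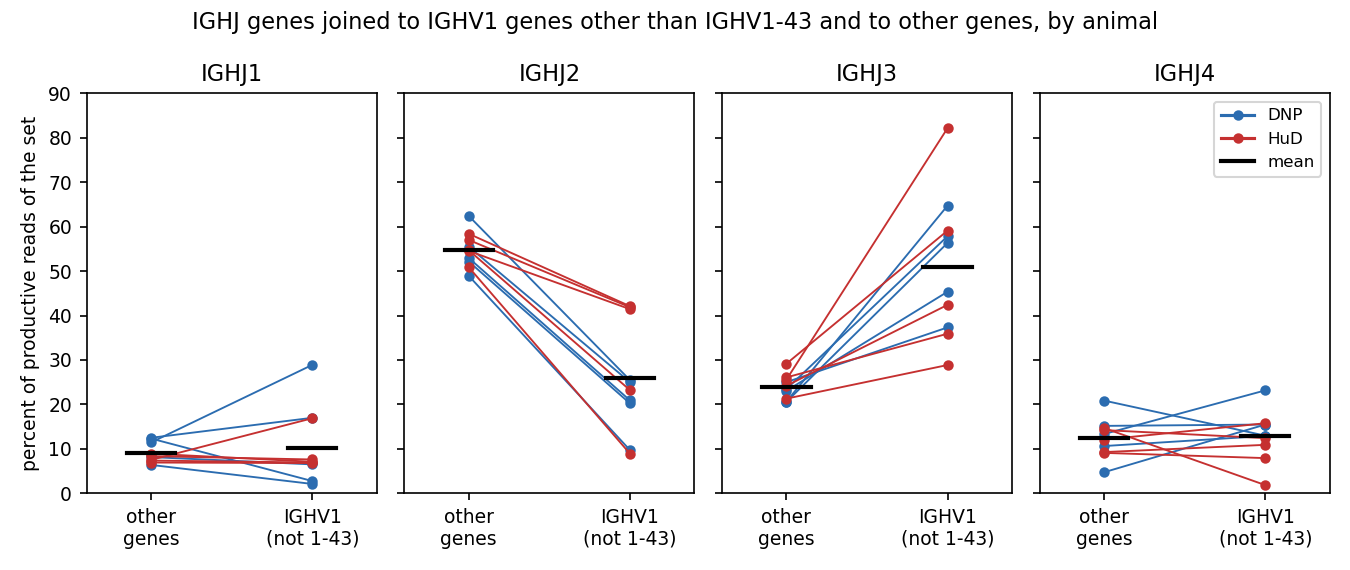
Percent of productive reads with each of the 4 IGHJ genes among all other genes (left of each panel) and among the IGHV1 genes other than IGHV1-43 (right), with a line for each animal (DNP blue, HuD red) and black bars for the mean over 10 animals. All lines fall for IGHJ2 and rise for IGHJ3, while those for IGHJ1 and IGHJ4 run both ways.

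The members did not all join IGHJ3 to the same degree. IGHJ3 was in 60.3% of the IGHV1-57 reads, 63.4% of IGHV1-32, 96.2% of IGHV1-52 and 53.4% of IGHV1-24, but in 35.3% of IGHV1-28, 29.1% of IGHV1-47 and 25.4% of IGHV1-60. The value of IGHV1-52 comes from 1 group of related reads in HuD3, described below, and of the 5 IGHV1-52 reads outside it 1 carried IGHJ3. Without the same group IGHV1-32 was at 36.2%, close to IGHV1-28. IGHV1-60 was joined to IGHJ2 in 52.0% of its reads. IGHV1-47 was joined to IGHJ1 in 31.7%, but in 12.1% without the HuD4 reads that had a 23-residue CDR3. These are pooled values, and in single animals with at least 10 reads the IGHJ3 percent of IGHV1-57 ran from 30.9 to 98.1. With each distinct combination counted once, IGHJ3 was in 44.0% of IGHV1-57, 43.9% of IGHV1-32, 69.2% of IGHV1-52 and 50.0% of IGHV1-24. It was then in 35.7% of IGHV1-28, 30.2% of IGHV1-47 and 28.1% of IGHV1-60. Among the other 75 genes with at least 100 reads the median IGHJ3 percent was 19.5, and 3 of them were at or above the 50.8% of the pooled members, among them IGHV1-43 itself, at 58.2%. That value is pooled too. By animal the IGHJ3 percent of IGHV1-43 was 66.4, 12.2, 65.4, 58.6 and 84.5 in DNP1 to DNP5. In HuD1 to HuD5 it was 44.6, 21.2, 25.9, 15.2 and 47.1.

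The difference was smaller, but kept its direction and passed the test, in the alternatives that treat clones differently. With each distinct combination counted once it was 16.2 percentage points for IGHJ3 and -20.8 for IGHJ2, and without reads whose CDR3 and IGHJ gene were also read under a gene outside the set it was 19.2 and -24.5.

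Between the antigens no IGHJ gene differed past the test (two-sided exact permutation test, adjusted over 4 genes). IGHJ3 was in 49.7 ± 21.4% of the reads of the members in HuD and 52.3 ± 10.9% in DNP animals (SD, n = 5 each, permutation adjusted p = 0.817). The lowest p was that of IGHJ4, with 9.75 ± 5.26% in HuD and 15.98 ± 4.20% in DNP animals (SD, n = 5 each, permutation p = 0.0556, adjusted 0.222). IGHJ4 passed with distinct combinations counted once, with a difference of -12.2, and without reads that shared their CDR3 with a gene outside the set, with a difference of -15.7 (adjusted permutation p = 0.0317 in both).

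Unproductive reads of the same genes numbered 266 over the 10 animals. They made up 7.76 ± 3.34% (SD, n = 10) of the productive and unproductive reads of the members, against 7.61 ± 1.22% for other genes (two-sided exact sign-flip permutation test, p = 0.953). The values of the members ran from 3.43% in DNP2 to 15.6% in DNP1, on 8 to 49 unproductive reads per animal.

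The genes differed in this reference. IGHV1-57 had 67 unproductive reads (3.82%), whereas IGHV1-60 had 64 (13.6%), and these came from all 10 animals, including the 2 without a productive IGHV1-60 read. IGHV1-42 had 22 unproductive and 31 productive reads. IGHV1-20, a pseudogene in the annotation, had 33 unproductive reads in 9 animals and 6 productive reads in 3. Another 3 genes, IGHV1-34, IGHV1-53 and IGHV1-66, were found only in unproductive reads, with 1 or 2 reads each. IGHV1-42, IGHV1-20 and these 3 were picked out after their values were seen.

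**Figure D4:**
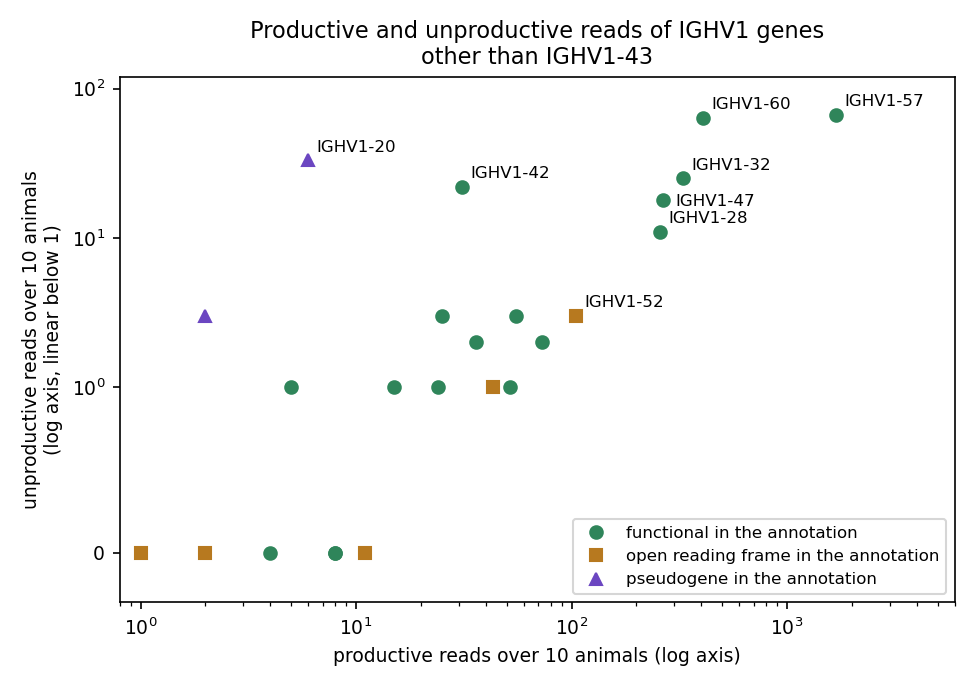
Productive (horizontal, log axis) and unproductive reads (vertical, log axis, linear below 1) of each member summed over the 10 animals, with the annotated class as marker shape and colour; 8 genes are named. IGHV1-20, with 33 unproductive and 6 productive reads, and IGHV1-42, with 22 and 31, lie to the left of the genes with similar numbers of unproductive reads.

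In the unproductive reads IGHJ3 was found in 38.1 ± 18.01% (SD, n = 10) and IGHJ2 in 31.9 ± 14.4%. Against unproductive reads of other genes in the same animals, a comparison added after the data were seen, IGHJ3 was 16.6 percentage points higher, in 7 of 10 animals, and IGHJ2 was lower in 9 of 10, with a difference of -19.95 percentage points. Both passed the two-sided exact sign-flip permutation test (adjusted p = 0.0469 and 0.0234). Productive reads of the members had 13.0 percentage points more IGHJ3 than their unproductive reads, in 8 of 10 animals (sign-flip permutation p = 0.0352, adjusted 0.141), which did not pass. It passed in 1 of the 10 settings that left out 1 animal, namely without DNP3 (difference 16.5, adjusted p = 0.0313, permutation test). In the other 9 it did not. DNP2 had 8 unproductive reads, as DNP3 had, and without DNP2 the difference was 11.6 (adjusted p = 0.281, permutation test).

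CDR3 length did not separate the members from other genes. The mean CDR3 of the members was 12.3 ± 1.38 amino acids (SD, n = 10) and that of other reads 11.8 ± 0.430 (two-sided exact sign-flip permutation test, p = 0.281), with the members longer in 7 of 10 animals. Animals varied more among the members, from 10.6 amino acids in DNP3 to 15.1 in HuD3. By antigen the mean was 13.1 ± 1.48 in HuD and 11.6 ± 0.849 in DNP animals (SD, n = 5 each, two-sided exact permutation p = 0.103). With 1 animal left out the difference passed in 1 of 10 settings, that without HuD2 (1.96, permutation p = 0.0476). Without HuD3 it was 1.01 (permutation p = 0.206). Without the HuD3 group of related reads described below it was 0.933 (permutation p = 0.151).

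The length distribution had separate peaks that came from single animals. Of the 282 reads of the members with an 18-residue CDR3, 140 were IGHV1-32 and 100 IGHV1-52 reads of HuD3. All 62 reads with a 23-residue CDR3 were from HuD4 and carried IGHJ1, 59 of them under IGHV1-47, and 45 of these 59 had a CDR3 that was also read under a gene outside the set.

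**Figure D5:**
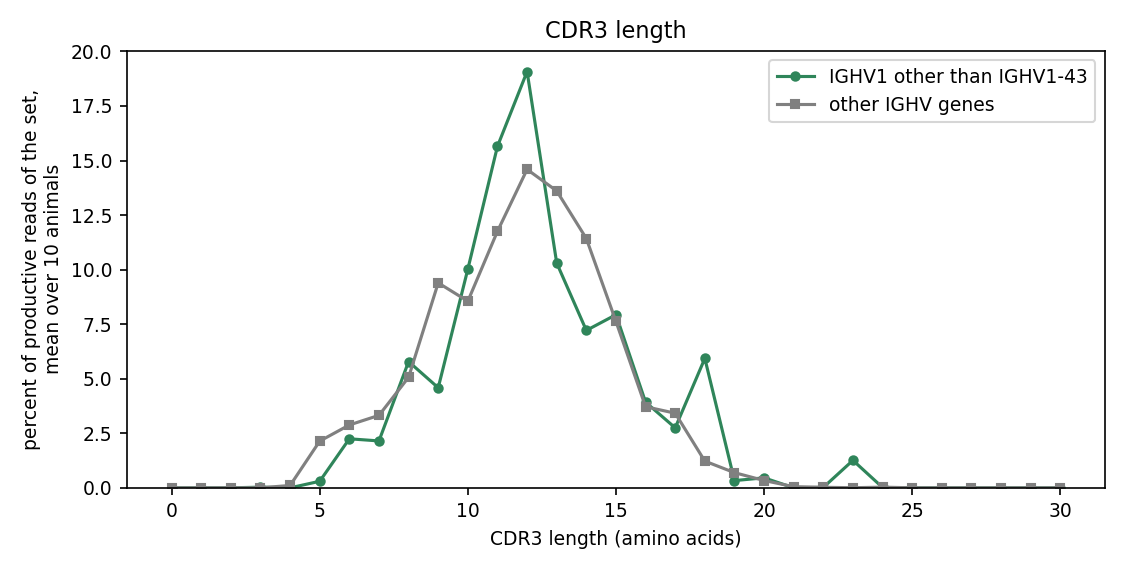
Percent of productive reads by CDR3 length in amino acids, as the mean over 10 animals, for the IGHV1 genes other than IGHV1-43 (green circles) and all other IGHV genes (grey squares). Both curves are highest at 12 amino acids, and the green curve has further peaks at 18 and 23, which come mainly from HuD3 and from HuD4.

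Most CDR3s of the members were read under them in 1 animal. This held for 1305 of 1315 distinct CDR3s (99.2%), of which 917 had a single read and could lie in 1 animal only. Of the 398 CDR3s with 2 reads or more, 388 (97.5%) were in 1 animal, beside 89.8% of the 51168 such CDR3s of all other genes, which had many more reads. Of the other 10, 5 were found in DNP animals only, 2 in HuD animals only and 3 in both. The 5 found in most animals are shown, with ties taken by reads, because they are the nearest to a CDR3 common to the animals. None had more than 17 reads under the members, to which the values refer. With all genes counted, ARGGWDY was read in 6 animals under 5 genes (13 reads) and TTLGDY in 4 animals under 11 genes (82 reads), while the other 3 were in the same number of animals as under the members.
ARGGWDY: 4 animals (DNP2, HuD1, HuD2, HuD4), 9 reads, mostly IGHV1-57
ARLDSGYNWFAY: 2 animals (DNP1, DNP4), 17 reads, of which 16 in DNP4
ARGVNWFPY: 2 animals (DNP4, HuD3), 10 reads, mostly IGHV1-47
TTLGDY: 2 animals (DNP1, DNP5), 9 reads, all IGHV1-6
ARGPH: 2 animals (HuD2, HuD5), 6 reads, all IGHV1-60

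Each animal had a different leading CDR3 among the members, and none of the 10 was read under the members in another animal. Those of up to 14 residues are shown, as the most read CDR3 of the members in these animals. The longer ones are described below and include those with the most reads, in HuD3 (105) and HuD1 (103).
DNP2: ARSRAPYWYFDF, IGHJ1, 34 reads
DNP3: ARSGDAGYAY, IGHJ3, 11 reads
DNP4: ARRSGYGNWFAY, IGHJ3, 98 reads
DNP5: ARGPRTGGFAY, IGHJ3, 56 reads
HuD2: ARQGGNLNWFAY, IGHJ3, 61 reads
HuD5: ARSRQLYSWYFDY, IGHJ2, 16 reads

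The leading CDR3 of DNP2 to DNP5 and HuD2 was mainly under IGHV1-57, and that of HuD5 was under IGHV1-28. The leading CDR3 made up between 4.42% of the reads of the members in HuD5 (95% Wilson interval 2.74 to 7.06) and 29.7% in DNP4 (25.02 to 34.8). Those of the other animals were longer. DNP1 had a 15-residue CDR3 with IGHJ4, 10 reads, mainly IGHV1-28. HuD1 had a 15-residue CDR3 with IGHJ3, 103 reads, all IGHV1-57, and HuD4 a 16-residue CDR3 with IGHJ2, 71 reads, of which 69 were IGHV1-60.

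HuD3 held a group of related reads that crossed gene names. It was defined after the data were seen, as the HuD3 reads of the members whose 18-residue CDR3 differed from the leading one at 4 positions or fewer. The group had 243 reads with 21 distinct CDR3s, 49.1% of the HuD3 reads of the members (95% Wilson interval 44.7 to 53.5), and all of them carried IGHJ3. The annotation placed 140 of the reads under IGHV1-32, 100 under IGHV1-52 and 3 under IGHV1-31. The 2 most frequent CDR3s had 105 and 97 reads and differed at 1 position, F10Y, counted from 1 at the first CDR3 residue. The first was named IGHV1-32 in 84 reads and IGHV1-52 in 21, the second IGHV1-52 in 70 and IGHV1-32 in 25.

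Thus 5 of the 105 IGHV1-52 reads lay outside this group. None of its CDR3s was read under a gene outside the set. Without the group, IGHJ3 in IGHV1-32 was 36.2% in place of 63.4%, the log2 difference of IGHV1-32 between the antigens was -0.05 in place of 1.64, and the difference in the share of the members was 0.0826 percentage points (exact permutation p = 0.0873), no longer past the threshold.

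Many reads of the members had a CDR3 and IGHJ gene that were also read under a gene outside the set in the same animal. These were 1282 reads (37.2%), and for 1181 of them IGHV1-43 was among those genes. The share was 23.1%, 43.6%, 30.0%, 72.1% and 52.8% in DNP1 to DNP5 and 2.46%, 47.2%, 12.9%, 59.1% and 31.5% in HuD1 to HuD5. The share did not follow the number of IGHV1-43 reads in order. DNP4, with the highest share, had the most, 15550, and HuD1, with the lowest, the fewest, 370. But DNP1 had the next most, 7928, and a low share, whereas HuD4, HuD2 and DNP2 had 781, 643 and 483 and higher shares than DNP1.

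By gene, 927 of the 1685 IGHV1-57 reads, 150 of the 406 IGHV1-60 reads and 109 of the 265 IGHV1-47 reads were of this kind. The share was 9.45% for IGHV1-32, 10.9% for IGHV1-28 and 2.86% for IGHV1-52. The leading CDR3 of DNP4 had 69 reads under genes outside the set, 67 of them IGHV1-43, beside its 98 reads under the members. A CDR3 found under several genes was not particular to the IGHV1 subgroup. Counting any other gene of the same animal, the share was 50.2% at the median of the 6 members with at least 100 reads (20.2 to 90.5) and 76.4% at the median of the 29 other genes with up to 2000 reads (1.46 to 91.3).

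The own residue of a member was taken as the commonest one in its reads without a shared CDR3, which favours those reads in advance. In IGHV1-57 it differed from the commonest residue of IGHV1-43 reads at 5 of the aligned positions before CDR3, 2 in FR2 and 3 in FR3. At these positions the IGHV1-57 reads without a shared CDR3 had the IGHV1-57 residue in 82.0% and the IGHV1-43 residue in 1.61% of cases. For those sharing their CDR3 with IGHV1-43 these values were 58.2% and 2.65%. The other members did not share 1 pattern. In IGHV1-60 the own residue was found in 89.6% of cases without a shared CDR3 and 90.1% with one, and in IGHV1-28 in 86.5% and 93.0%. In IGHV1-47 the values were 90.6% and 83.6%. In IGHV1-32 they were 78.0% and 20.4%. All 25 IGHV1-32 reads sharing their CDR3 with IGHV1-43 had more IGHV1-43 than IGHV1-32 residues at the differing positions. So had 49 of the 297 IGHV1-32 reads without a shared CDR3 (16.5%). The 140 IGHV1-32 reads of the HuD3 group were among these 297 and so helped to set the IGHV1-32 residues. These differences were not tested. Whether the shared CDR3s arose in the animals or in the libraries was not tested.

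Reads of the members had few sequenced copies. The mean number of copies behind a read was 1.02 ± 0.0168 (SD, n = 10) for the members and 1.57 ± 0.184 for other genes, lower in 10 of 10 animals (two-sided exact sign-flip permutation test, p = 0.00195, added after the data were seen). Of the 3448 reads 98.4% rested on 1 copy and 54 on more. Low copy numbers were not particular to these genes, since 41 of the other 75 genes with at least 100 reads had a mean at or below 1.10, the highest of the 6 members. The part of low copy numbers in the values above was not tested. With copies counted in place of reads, the difference in the share of the members was 0.0761 percentage points (exact permutation p = 0.0476). That of IGHJ3 was 29.1.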

How the data were processed

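Spleen RNA of 10 rats was sequenced as heavy chain variable domains on a MiSeq. PEAR was used by the authors to merge the pairs, MIGEC to collapse sequences that had the same tag and the same 10 CDR3 bases, and High-VQuest for annotation. Tool versions and germline set: not given in the sources used here. The authors deposited beside each sequence a count, its number of sequenced copies. Here 1 listed sequence was 1 read, and copies were an alternative unit. Gene names, functionality, CDRs and IGHJ were taken as deposited. No member matched a gene symbol in the RefSeq table at hand, so no positions are given. 170 reads of the members with unknown functionality were left out of the comparisons.

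The rule for members uses gene names only, but the choice of this set of genes and of the lists was made with earlier results of these data known. Genes named in the text were the 10 with the highest mean percent, any past the edgeR threshold, the 2 nearest to 100 reads and those with productive reads in 1 animal. Other named genes are marked where they appear. CDR3s were the leading one of each animal and the 5 found in most animals.

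Usage was tested with edgeR 4.0.16 (quasi-likelihood, TMM, minimum of 100 reads per gene in total, Benjamini-Hochberg) in R 4.3.3, and with DESeq2 1.42.0 and limma 3.58.1 (pseudocount 10 RPM) as alternatives. Single values were tested over the 252 choices of 5 animals (smallest two-sided p 0.00794) or by sign-flips within 10 animals (smallest p 0.00195), both exact, with Python 3.11.15, numpy 2.4.6, pandas 2.3.3 and scipy 1.17.1. Figures were drawn with matplotlib 3.10.9. The tests were checked on simulated data. Depth was 60647 to 259834 productive reads per animal, and intervals and limits cover counting error only, since tags do not remove all PCR copies. Equal numbers in the 2 groups do not mark 1 animal, so no block was used. Alternatives were other normalizations, no minimum of reads, reads naming a single IGHV gene, copies, distinct combinations, a replicate block and each animal left out. Chosen after seeing the data were leaving out the HuD3 group with an 18-residue CDR3, leaving out reads sharing their CDR3 with a gene outside the set, leaving IGHV1-43 out of the comparator, and the HuD4 reads with a 23-residue CDR3 out of IGHV1-47.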

Additional observations from a re-analysis of the deposited data

Results flagged for a closer look

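In 34 sets of 5 animals, each holding 1 value of 1 antigen group, a single animal stood apart by Dixon's test at 95% in 7. Chance alone flags about 1 in 20 where values are normally distributed, which need not hold for small counts with zeros, so no excess is read from the 7. A gene with productive reads in 1 animal only, as IGHV1-52 and IGHV1-56 had, is flagged whatever its number of reads. IGHV1-32 in HuD3 was at 0.118% of productive reads, with the next HuD animal at 0.0101%, and IGHV1-52 in HuD3 was at 0.0625%, with the next at 0; 140 and 100 of these reads belong to the group with related 18-residue CDR3s. IGHV1-60 in DNP2 was at 0.0299%, with the next DNP animal at 0.00115%. IGHV1-29 in HuD1 was at 0.0122%, with the next at 0.00119%. IGHV1-56 in HuD1 was at 0.00064%, which is 1 read. IGHJ1 among the reads of the members was at 16.9% in HuD4, with the next HuD animal at 7.59%, and the 62 reads with a 23-residue CDR3 and IGHJ1 are part of it. IGHJ4 was at 23.1% in DNP1, with the next DNP animal at 15.5%.

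Outside the comparisons, 170 reads of these genes had unknown functionality in the annotation, 5 to 85 per animal. No comparison of the members with other genes differed between the antigens past the threshold: of 6 such differences tested, the lowest exact permutation p was 0.127 (adjusted 0.381), for CDR3 length and for IGHJ2.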

How the results depend on the processing

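The IGHJ2 and IGHJ3 differences between productive reads of the members and of other genes kept their direction and passed the test in every alternative run. The difference in the share of the members between the antigens did not: it was 0.114 with distinct combinations and 0.0826 without the HuD3 group, no longer past the threshold, and 0.0919 to 0.135 with 1 animal left out. The number of IGHV genes called was 17 with DESeq2, 16 with limma, 0 with distinct combinations of IGHV gene and CDR3, and 0 to 30 with 1 animal left out (30 without DNP2, 0 without HuD1, HuD4 or HuD5), and the members called were 1 with limma and 0 to 1 with 1 animal left out. Values that had not passed the test also changed sign. IGHJ1 against other genes was -1.15 without reads sharing their CDR3 outside the set, and the unproductive share was -3.02 with copies. IGHJ1 between the antigens was 2.27 with distinct combinations and 1.92 without the sharing reads, and IGHJ3 was 0.0776 and 10.4. IGHJ4 passed in these same settings, at -12.2 and -15.7. IGHV1-32 was -0.051 without the HuD3 group and IGHV1-47 was 0.042 with limma. With 1 animal left out, the ranges were -0.529 to 2.47 for IGHJ1 and -0.663 to 1.96 for IGHJ4 against other genes, -0.956 to 0.771 for the unproductive share, 1.01 to 1.96 for CDR3 length between the antigens, -4.73 to 1.98 for IGHJ1 and -10.8 to 2.58 for IGHJ3 between the antigens, -1.08 to 0.792 for IGHJ1 and 9.91 to 16.5 for IGHJ3 of productive against unproductive reads, -0.13 to 0.79 for IGHV1-28, -1.37 to 1.95 for IGHV1-32 and -0.94 to 0.65 for IGHV1-47. The cause of these changes was not tested. With 108 to 646 reads of the members per animal, the genes under 100 reads were compared only in the alternative without a minimum of reads, in which 0 of the 24 members were called and the lowest p among those genes was that of IGHV1-8 (25 reads, log2 difference 3.59, edgeR adjusted p = 0.156).

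Animals of the 2 groups share only a number, and their deviations from the group means correlated at -0.144, -0.0669, 0.289, 0.0982 and -0.028 for numbers 1 to 5. With the replicate block 13 IGHV genes and 0 members were called, and IGHV1-32 was -0.34.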
